A study of Mus musculus with 6 samples.

Results

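The genes described here encode the constitutive proteasome, its activators and its assembly factors, measured in mouse liver. They were chosen by name, as every gene whose symbol begins with Psma, Psmb, Psmc, Psmd, Psme, Psmf or Psmg followed by a number, without the 3 inducible catalytic subunits Psmb8, Psmb9 and Psmb10. This gave 46 of the 22180 genes tested. The name rule also took in Psmc3ip and Psme3ip1, whose products are not proteasome subunits, so 44 of the 46 are proteasome genes. Psma4 met the name rule but shared both of its probe sets with another gene symbol, and it was therefore not a member.

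Liver RNA came from male cGK1-KO mice carrying a smooth muscle rescue (3 samples) and from male controls, which the sample labels call wild type (3 samples). The mice were C57BL/6N and aged 2 months, and the labels do not say that each sample is a separate animal. There was 1 Affymetrix whole-transcript array per sample. cGK1 is the cGMP-dependent protein kinase 1, encoded by Prkg1. The promoter that drives the rescue, the deleted exon and the cells in which the kinase was restored beyond the words smooth muscle are not given in the labels. Values are log2 expression after robust multi-array averaging (RMA), and a difference is always knockout minus control on the log2 scale. Here n = 3 per group throughout, and an adjusted p is that of limma with Benjamini-Hochberg adjustment over the 22180 genes.

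The proteasome is the large protease that degrades proteins tagged with ubiquitin. Its 20S core is a barrel of stacked rings, in which the alpha subunits form the gate and the beta subunits carry the proteolytic sites. The 19S regulatory particle binds ubiquitin chains, removes them, and unfolds the substrate with a ring of ATPases. When protein breakdown is blocked, the transcription factor NRF1 (Nfe2l1) raises the subunit genes together. Interferon signalling induces the alternative catalytic subunits and the activator PA28. In liver it is also a route by which hepatocyte enzymes are turned over.

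On these arrays Prkg1 lay at 3.31, 3.04 and 3.22 in knockout replicates 1 to 3 and at 3.32, 2.97 and 2.95 in the controls, close to the median of all probe set values (3.14), so it does not check the genotype labels. Hepatocyte markers were high on every array (8 of 8 markers, between 9.24 and 13.4). Over all genes knockout replicate 3 stood apart from the other arrays, at 36.0 on the second principal component against -18.6 to 0.22 for the other 5. On the first component computed from the 46 members alone the knockouts lay at -0.92, -1.01 and -1.24 and the controls at 0.57, 1.57 and 1.04, so knockout replicate 3 lay with the other knockouts.

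Most proteasome genes lay somewhat lower in the knockout samples, and none passed the test over all genes. The difference was negative for 38 of the 46 members, where 49.8% of all genes tested had a negative difference. The members are not separate observations. Over the 6 arrays, group difference included, the median pairwise correlation of the 44 proteasome genes was 0.53. The median over the members was -0.28, a 1.21-fold lower level, beside 0.00 over all genes tested. The differences were small, with 44 of 46 under 0.5 in size. By limma, 0 members passed an adjusted p of 0.05, as did 0% of all genes, and the smallest adjusted p among the members was 0.203. At an unadjusted p under 0.05, 18 members were lower, where 5.46% of all genes met the same rule, and 1 member was higher, where 5.06% did. Brighter genes leaned downward in general, so the share among the 13284 genes above the dim limit is also given. Among those, 7.83% were lower at an unadjusted p under 0.05 and 57.2% had a negative difference, while of the 43 members above that limit 18 were lower and 38 negative. The median level per array was 4.70 to 4.80 for the 13284 genes and 6.24 to 6.64 for these 43 members. The comparison was therefore not matched for level.

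**Figure D1:**
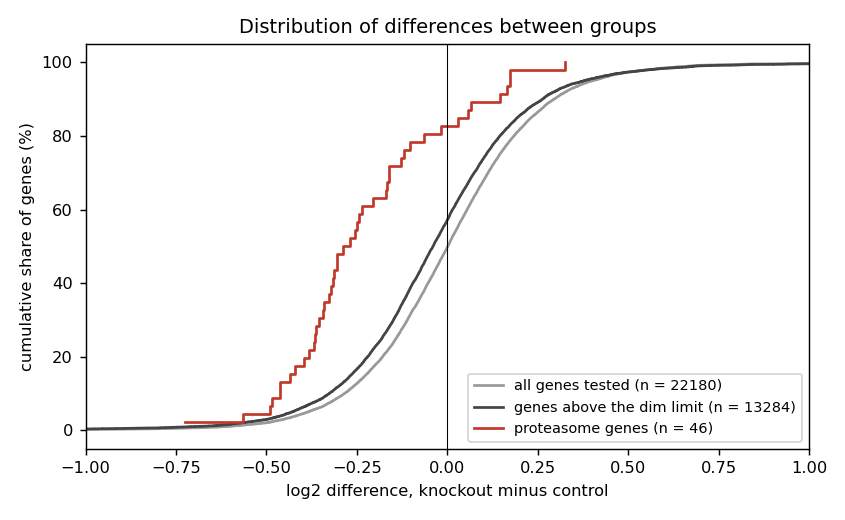
Cumulative share of genes (y axis, percent) by log2 difference, knockout minus control (x axis), for the 46 proteasome genes, all 22180 genes tested and the 13284 genes above the dim limit. The curve of the proteasome genes lies to the left, with a median of -0.28 against 0.00 and -0.04.

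All knockout arrays showed the lower values. The median deviation of the members from the control mean was -0.22, -0.25 and -0.30 in knockout replicates 1 to 3, and -0.07, 0.08 and 0.01 in control replicates 1 to 3. In knockout replicates 1, 2 and 3 respectively, 32, 32 and 31 of the 46 members lay below all control values, where 7138, 6666 and 6702 of all 22180 genes and 5400, 4200 and 4929 of the 13284 above the dim limit did so. The 3 knockout values lay entirely below the 3 control values for 23 members, where 9.14% of all genes and 13.1% of those above the dim limit did so, and entirely above them for 1, where 7.61% did. Without control replicate 2, the array with the highest member levels, 7 members were lower at an unadjusted p under 0.05, while the share of all genes that were fell from 5.46% to 3.42%. Without control replicate 3 there were 11 such members and 4.10% of all genes, and leaving out any other array gave 12 to 17 members and 4.08% to 6.21%.

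**Figure D2:**
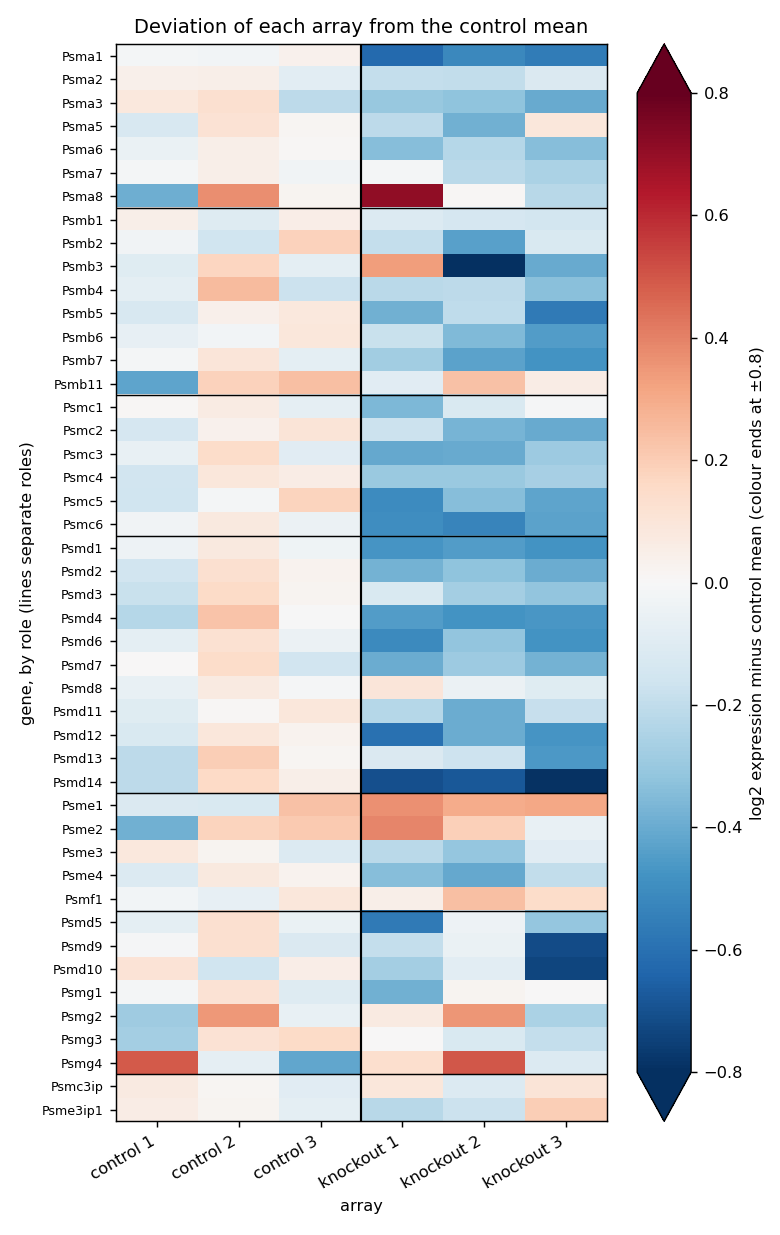
Deviation of each member on each array from its control mean, in log2 units by colour, with genes in rows grouped by role and arrays in columns. Most cells of the knockout columns are blue for the 19S and 20S genes, with exceptions such as Psmd8 in knockout replicate 1, while Psme1 is red in all 3 knockout arrays and the assembly factors are mixed.

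The promoters of the members that lay lowest are shown to let the letters be compared with the differences. The windows come from RefSeq (GRCm38.p6), run from 250 bases before to 50 after the start, and were found for 38 of the 46 members. Psmc3, Psmd3, Psmd7, Psma8, Psmb1, Psmb2, Psmb7 and Psmg2 had no entry. The 100 bases before the start are printed on the gene's strand for Psmd14 (chr2:61711594-61711693, plus strand), which had the most negative difference of the 19S, for Psma1 (chr7:114276117-114276216, minus strand), which had that of the 20S, and for Psme1 (chr14:55578394-55578493, plus strand), which lay higher. Capitals mark the CCAAT motif on either strand, and only within the 100 bases printed. The printed bases of Psmd14 hold no match, and its window holds 3 outside them, at positions -159, 4 and 7 from the start. The Psma1 window holds 1 more outside the printed bases.
Psmd14: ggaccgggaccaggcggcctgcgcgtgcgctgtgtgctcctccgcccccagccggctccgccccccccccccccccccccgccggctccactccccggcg
Psma1: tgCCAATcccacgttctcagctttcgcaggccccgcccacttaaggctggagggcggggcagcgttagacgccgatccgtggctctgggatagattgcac
Psme1: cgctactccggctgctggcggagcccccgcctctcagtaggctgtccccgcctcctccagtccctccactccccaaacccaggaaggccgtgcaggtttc

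A search for TGACNNNGC on both strands, the core of the antioxidant response element that NRF1 and NRF2 bind, matched 6 of the 38 members (15.8%) against 12.5% of all genes in the table, counting the first window of each gene. The matched stretches that lie wholly before the start used for the window are printed on the gene's strand, with the match in capitals. The search covered all 38 members, and those printed were picked by its outcome. They are Psmb5 (chr14:54618009-54618068, minus strand), Psmb6 (chr11:70525322-70525356, plus strand), Psmc6 (chr14:45329574-45329630, plus strand), Psmd12 (chr11:107479278-107479314, plus strand) and Psmd9 (chr5:123228133-123228189, plus strand). The annotated gene start of Psmb6 (70525324) lies before the start used for its window, so its match lies inside the annotated gene. In Psmc6 and Psmd12 the match reads on the opposite strand. The sixth match, in Psme4, ran into the transcribed part and is not printed.
Psmb5: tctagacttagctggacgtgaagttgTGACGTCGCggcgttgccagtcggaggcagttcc
Psmb6: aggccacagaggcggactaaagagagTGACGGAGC
Psmc6: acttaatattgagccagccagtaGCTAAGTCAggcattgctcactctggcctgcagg
Psmd12: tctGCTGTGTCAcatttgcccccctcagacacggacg
Psmd9: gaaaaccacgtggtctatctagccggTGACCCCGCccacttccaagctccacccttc

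CCAAT on either strand was found in 14 of 38 members (36.8%) against 37.9% of all genes. GAAANNGAA on either strand, part of the interferon-stimulated response element, was found in 6 of 38 members (15.8%) against 8.57% of all genes; this form was chosen after a longer one had been searched. The 6 were Psmd4, Psmb3, Psmb4 and Psmd9, with negative differences, and Psmg4 and Psme1, with positive ones. In Psme1 the match began 10 bases after the start. The windows of the inducible genes Psmb8, Psmb9 and Psmb10 held 0 matches of this form. Matches of different motifs overlapped in 0 of the members' windows. A match is a run of letters only, and no binding was measured.

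In the alpha ring of the 20S core, 6 of 7 measured genes had negative differences, with a median of -0.17. Over all genes tested, 49.8% had a negative difference, 5.46% were lower at an unadjusted p under 0.05 and 9.14% lay lower without overlap. These shares stand beside the counts of each role below. Psma1, an alpha ring subunit, lay at 5.86, 5.96 and 5.92 in the knockouts and at 6.46, 6.45 and 6.51 in the controls. The groups lay far apart compared with their spread, with a difference of -0.56 (SE 0.12, a 1.48-fold lower level) and an adjusted p of 0.221. Psma3 lay at 8.34, 8.32 and 8.24 against 8.72, 8.77 and 8.43, and only control replicate 3 came near the knockouts (-0.34, SE 0.14, adjusted p = 0.430). Psma6 lay at 6.54, 6.65 and 6.54 against 6.82, 6.92 and 6.89, again without overlap (-0.30, SE 0.12, adjusted p = 0.429). Psma2 (-0.17) did not overlap between the groups either, while Psma7 (-0.16) did. Psma5 (-0.17) was near the dim limit on the probe set used, and the second, dimmer probe set gave -0.70, so its size is uncertain. Psma8, a testis-specific alpha subunit, was dim (2.49 to 3.60 over all arrays), with a difference of 0.17. The brighter probe set of Psma4, an alpha subunit, also names AY074887 and lay at 7.21, 7.30 and 7.39 in the knockouts and 7.54, 7.50 and 7.57 in the controls.

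Of the 8 beta ring genes, 7 had negative differences, with a median of -0.29. Lower at an unadjusted p under 0.05 were 3 of them, where 5.46% of all genes tested met that rule. These were Psmb5, Psmb6 and Psmb7, which carry the proteolytic sites of the constitutive core. Psmb7, the trypsin-like subunit, lay at 8.42, 8.27 and 8.22 in the knockouts and at 8.68, 8.79 and 8.62 in the controls (-0.40, SE 0.13, a 1.32-fold lower level, adjusted p = 0.350). Psmb5, the chymotrypsin-like subunit whose promoter stretch is printed above, lay at 6.79, 6.97 and 6.61 against 7.04, 7.21 and 7.26 (-0.38, SE 0.14, adjusted p = 0.402). Psmb6, the caspase-like subunit, lay at 6.42, 6.25 and 6.16 against 6.54, 6.58 and 6.69 (-0.33, SE 0.13, adjusted p = 0.429). In all 3 the groups did not overlap, although the nearest values of Psmb5 and Psmb6 were close. The non-catalytic Psmb1 (-0.13) and Psmb4 (-0.25) also lay lower without overlap, and Psmb2 (-0.25) with it. Psmb3 (-0.34) varied widely in the knockouts, at 5.04, 3.75 and 4.30. Psmb11, the thymus-specific catalytic beta subunit, was under the dim limit on all arrays and had a difference of 0.07.

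**Figure D3:**
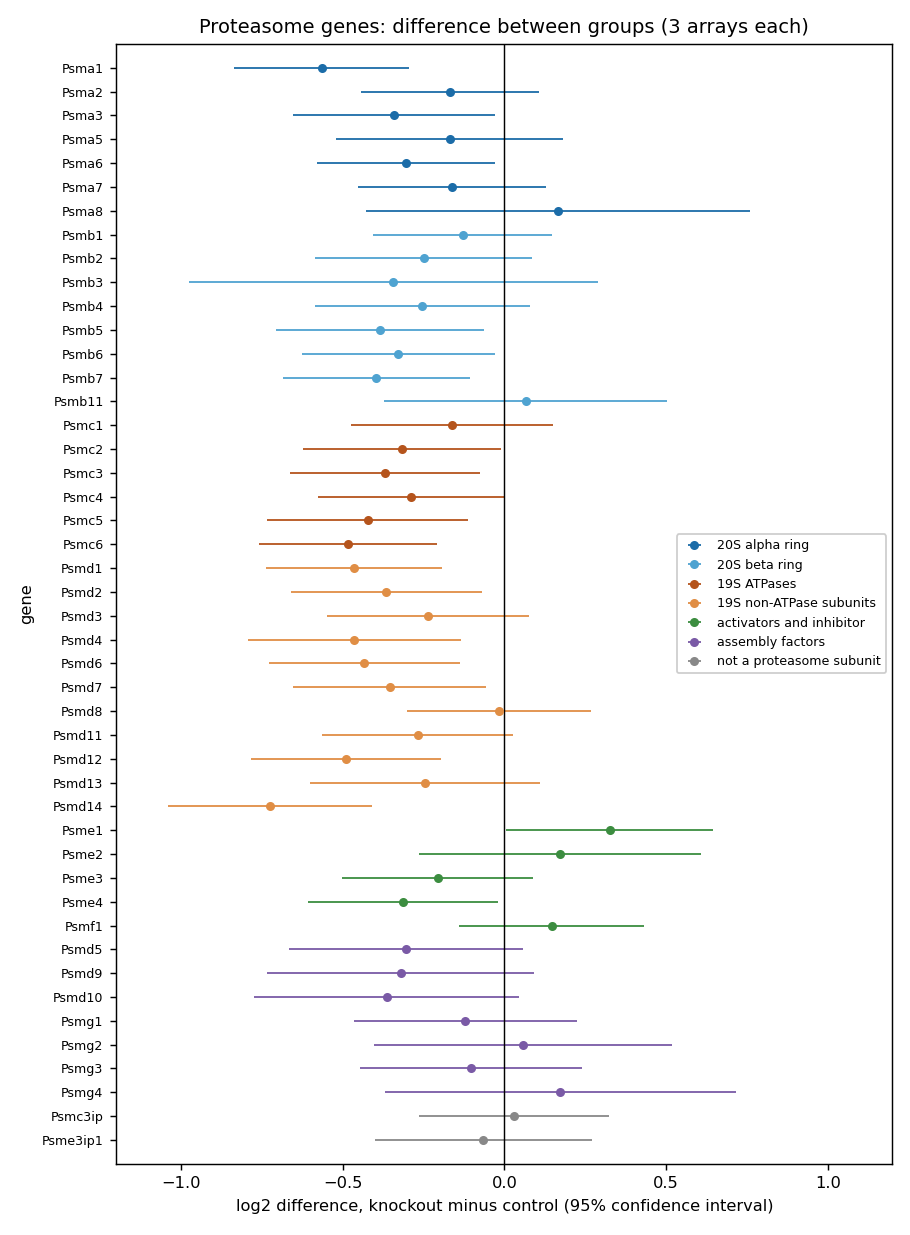
Log2 difference, knockout minus control (x axis, points with 95% confidence intervals of the limma fit), for the 46 members (y axis), coloured by role. All 17 members of the 19S particle lie left of 0, from -0.72 (Psmd14) to -0.02 (Psmd8), whereas Psme1 lies right of 0 at 0.33. Psmd8 is the 1 of the 17 that changed sign under some alternatives.

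In the 19S regulatory particle the differences of all 17 members were negative (median -0.36), and 11 were lower at an unadjusted p under 0.05. All 17 were above the dim limit. Among all genes above it, 57.2% had a negative difference and 7.83% were lower at that p. The lid subunit gene Sem1, which the name rule leaves out, had a difference of 0.07 with overlap. Psmd8, at -0.02, moved to 0.02 without knockout replicate 3 or without control replicate 2 and to 0.03 after further quantile normalization, so 16 of the 17 kept a negative sign under every alternative.

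The 6 ATPases form the ring that unfolds substrates and feeds them into the core. Of these, 4 were lower at an unadjusted p under 0.05, beside 7.83% of all genes above the dim limit. Psmc6 lay at 7.65, 7.62 and 7.72 in the knockouts and at 8.12, 8.23 and 8.10 in the controls, a level 0.715 times that of the controls (-0.48, SE 0.12, adjusted p = 0.264). Psmc5 lay at 5.78, 5.94 and 5.86 against 6.12, 6.27 and 6.46 (-0.42, SE 0.14, adjusted p = 0.353). Psmc3 lay at 6.08, 6.09 and 6.20 against 6.43, 6.64 and 6.40 (-0.37, SE 0.13, adjusted p = 0.385). These 3 showed no overlap between the groups. Psmc2 lay at 7.12, 6.91 and 6.88 against 7.15, 7.32 and 7.39 (-0.32, SE 0.14, adjusted p = 0.459), so that knockout replicate 1 almost met control replicate 1, and a second, dimmer probe set of this gene gave 0.00. Psmc4 (-0.29) did not overlap and had an adjusted p of 0.476. Psmc1 (-0.16) overlapped, with knockout replicate 3 inside the control range.

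Among the 11 non-ATPase subunits, 7 were lower at an unadjusted p under 0.05, beside 7.83% of all genes above the dim limit. Psmd14 is the metalloprotease that cuts ubiquitin chains off the substrate at the entrance of the core. It lay at 5.14, 5.16 and 5.05 in the knockouts and at 5.63, 6.00 and 5.89 in the controls. The groups were well separated, with a difference of -0.72 (SE 0.14, 95% interval -1.04 to -0.41), a 1.65-fold lower level and the only member past 1.5-fold, a size that 2.92% of all genes reached in either direction. Its adjusted p was 0.203 (0.0940 to 0.642 over the alternatives), and an exact two-sided permutation test gave p = 0.1, the smallest that 3 against 3 arrays allow.

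Psmd1 and Psmd2 are the large scaffold subunits of the particle. Psmd1 lay at 7.30, 7.33 and 7.30 against 7.73, 7.85 and 7.74, with a knockout spread far smaller than the difference (-0.46, SE 0.12, adjusted p = 0.279). Psmd2 lay at 7.26, 7.31 and 7.24 against 7.48, 7.76 and 7.67 (-0.36, SE 0.13, adjusted p = 0.389). Psmd4, a ubiquitin receptor, lay at 6.58, 6.54 and 6.55 against 6.79, 7.25 and 7.02 (-0.46, SE 0.15, adjusted p = 0.346). The knockout values of all 3 were close together, and the controls were more spread.

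Other subunits of the lid, which surrounds the site of ubiquitin removal, lay lower too. Psmd12 lay at 7.03, 7.22 and 7.15 against 7.50, 7.72 and 7.65 (-0.49, SE 0.13, adjusted p = 0.294). Psmd6 lay at 6.11, 6.31 and 6.15 against 6.55, 6.75 and 6.58 (-0.43, SE 0.13, adjusted p = 0.329). Psmd7, the partner of Psmd14, lay at 7.23, 7.33 and 7.25 against 7.63, 7.77 and 7.48 (-0.35, SE 0.13, adjusted p = 0.403). None of these overlapped between the groups, nor did Psmd11 (-0.27). Psmd3 (-0.24) and Psmd13 (-0.25, or -0.14 without knockout replicate 3) overlapped. Psmd8, also a lid subunit, lay at 8.23, 8.09 and 8.04 against 8.07, 8.21 and 8.13 (-0.02, 95% interval -0.30 to 0.27).

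**Figure D4:**
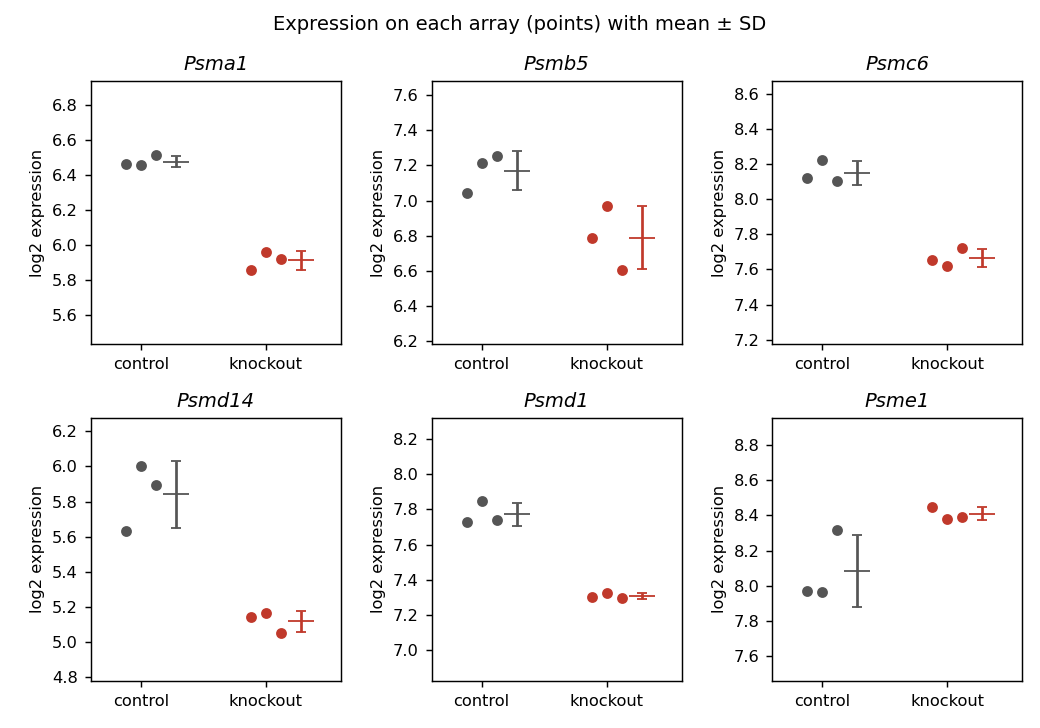
Log2 expression on each array (points) with the group mean and SD beside them, for Psma1, Psmb5, Psmc6, Psmd14, Psmd1 and Psme1, with every panel spanning the same range of 1.5 log2 units. In the first 5 genes all knockout points lie below all control points, and in Psme1 all lie above, control replicate 3 (8.32) being close to the knockouts.

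The activators and the inhibitor were mixed in direction, with 2 of 5 differences negative and a median of 0.15. Psme1, the alpha subunit of the PA28 activator, was the only member that was higher at an unadjusted p under 0.05. It lay at 8.45, 8.38 and 8.39 in the knockouts and at 7.97, 7.96 and 8.32 in the controls, a 1.25-fold higher level (0.33, SE 0.14, adjusted p = 0.466). Its p was no longer under 0.05 after centring the arrays, with array weights, with the replicate block or without any of 5 arrays, while its difference remained between 0.27 and 0.44. Psme2, the beta subunit of PA28, had a difference of 0.17 with overlap, and a second probe set that also names 2 other genes gave -0.37. Psme4, the PA200 activator, lay at 7.41, 7.34 and 7.55 against 7.64, 7.83 and 7.78 (-0.31, SE 0.13, adjusted p = 0.439), below the controls without overlap. Psme3, the nuclear PA28 gamma (-0.21), and the inhibitor gene Psmf1 (0.15) overlapped.

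Assembly factors are chaperones that build the particle and then leave it, and 5 of the 7 had negative differences, with a median of -0.12 and 0 at an unadjusted p under 0.05 in limma. Psmd10, the chaperone also called gankyrin, had the smallest p, at 4.84, 5.03 and 4.37 in the knockouts and 5.22, 4.95 and 5.16 in the controls (-0.36, SE 0.18, adjusted p = 0.521), with overlap. The other chaperones of the ATPase ring, Psmd5 (-0.30) and Psmd9 (-0.32), were lowest in different knockout arrays, replicate 1 and replicate 3. Without knockout replicate 3, the array that stood apart over all genes, the difference was -0.18 for Psmd10 and -0.12 for Psmd9, and it stayed at -0.30 for Psmd5. The core chaperones Psmg1 (-0.12), Psmg2 (0.06), Psmg3 (-0.10) and Psmg4 (0.17) overlapped between the groups, and Psmg4 was dim. Psmc3ip (0.03), a meiotic recombination factor, and Psme3ip1 (-0.07), which binds PA28 gamma, also overlapped, the latter at 6.15, 6.20 and 6.57 against 6.43, 6.39 and 6.29.

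The 3 inducible subunits replace Psmb6, Psmb7 and Psmb5 in the immunoproteasome, and all 3 had positive differences. Over all genes tested, 50.2% had a positive difference and 7.61% lay above the controls without overlap. Psmb8 (0.56, SE 0.17, adjusted p = 0.321) and Psmb10 (0.38, SE 0.14, adjusted p = 0.396) lay above the controls without overlap, and Psmb9 (0.22, SE 0.13, adjusted p = 0.591) overlapped. Within each array the log2 ratio of an inducible subunit to its constitutive counterpart was set to 0 in the control mean. For Psmb8 against Psmb5 the knockouts then lay at 1.15, 0.72 and 0.97 and the controls at 0.05, -0.23 and 0.19. For Psmb10 against Psmb7 they lay at 0.76, 0.91 and 0.65 against 0.03, -0.09 and 0.06. For Psmb9 against Psmb6 they lay at 0.49, 0.56 and 0.59 against -0.04, 0.19 and -0.16. In all 3 pairs the groups did not overlap. The ratios restate the differences of the single genes, whose opposite directions were already known, so they are a description, and an exact two-sided permutation test of 3 against 3 arrays cannot go below p = 0.1.

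**Figure D5:**
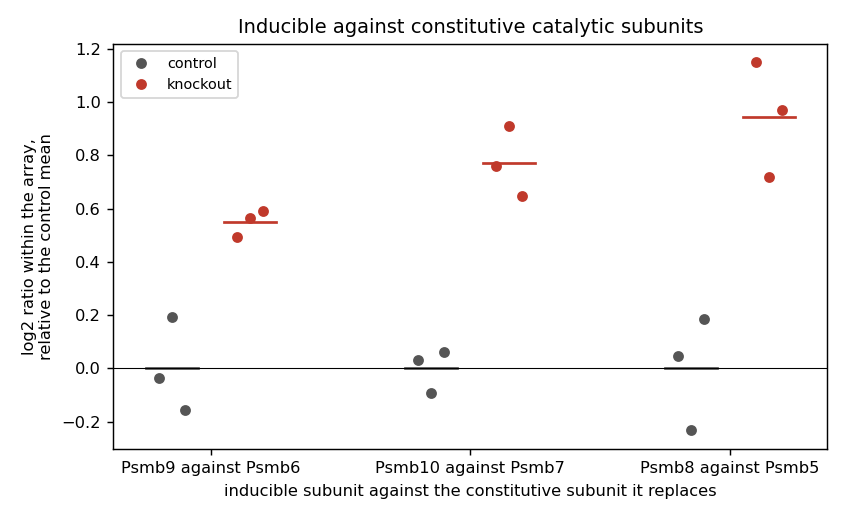
Within-array log2 ratio of each inducible catalytic subunit to the constitutive subunit it replaces, relative to the control mean (y axis), for 3 pairs, with points for arrays and bars for group means. Knockout points lie between 0.49 and 1.15 and control points between -0.23 and 0.19.

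Genes that work with the proteasome but do not carry its names were read from lists chosen by function. All measured genes in the lists of partners, of ubiquitin delivery and of transcriptional control were above the dim limit. Among all genes above that limit, 57.2% had a negative difference and 7.83% were lower at an unadjusted p under 0.05. For 13.1% of them the knockout values lay below the controls without overlap. Of 9 measured partners, 7 had negative differences, with a median of -0.26, and 3 were lower at an unadjusted p under 0.05. Txnl1, a thioredoxin-like protein bound to the 19S, lay at 7.48, 7.67 and 7.63 against 7.85, 8.02 and 8.01 (-0.37, adjusted p = 0.377). The deubiquitinases Usp14 (-0.36, adjusted p = 0.429) and Uchl5 (-0.34, adjusted p = 0.461) also lay below the controls without overlap. The assembly factor gene Pomp (0.02) and Sem1 (0.07) overlapped between the groups, Pomp with a control range of 5.68 to 6.80.

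Of 7 genes that deliver ubiquitinated proteins, 7 had negative differences, with a median of -0.25. Vcp, the p97 ATPase that extracts proteins for degradation, lay at 8.22, 8.11 and 8.15 against 8.40, 8.65 and 8.63 (-0.40, SE 0.13, adjusted p = 0.356), and was the only one of them at an unadjusted p under 0.05. Its second, dimmer probe set gave 0.09, so its direction is uncertain. Its cofactors Nploc4 (-0.25) and Ufd1 (-0.24) and the shuttle factors Ubqln1 (-0.26) and Ubqln4 (-0.28) did not overlap between the groups. Of the ubiquitin genes and E1 enzymes, the E1 gene Uba6 alone was measured by a probe set of its own (0.09).

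Of 7 genes that control proteasome transcription, 6 had negative differences, with a median of -0.12. Mafg, a small MAF partner of NRF1 and NRF2, lay at 4.30, 4.65 and 4.58 against 4.76, 4.86 and 4.97 (-0.36, adjusted p = 0.429), the only one at an unadjusted p under 0.05. Nfe2l1 itself lay at 5.91, 6.13 and 5.78 against 6.09, 6.16 and 6.08 (-0.17, SE 0.14, adjusted p = 0.693), with overlap. Nfe2l2, the NRF2 gene, differed by -0.07 and Ngly1, which processes NRF1, by -0.14.

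Macrophage markers moved with the groups, and markers of other cell types did so less clearly or not at all. Of all genes tested, 50.2% had a positive difference and 5.06% were higher at an unadjusted p under 0.05. All 10 macrophage markers were higher at an unadjusted p under 0.05, with a median difference of 0.84 and a smallest adjusted p of 0.221, and their summed level on the linear scale was 717 to 1660 in the knockouts and 545 to 587 in the controls. The median deviation of the macrophage markers from the control mean was 0.73, 1.53 and 0.34 in knockout replicates 1 to 3. That of the proteasome members was -0.22, -0.25 and -0.30 in the same arrays. Stellate cell markers had positive differences in 8 of 8 genes, 1 of them at an unadjusted p under 0.05, and their summed levels overlapped (662, 1389 and 701 in the knockouts, 757, 652 and 593 in the controls), with knockout replicate 2 alone above the controls. Lymphocyte markers were positive in 7 of 7 genes, 1 of them at an unadjusted p under 0.05 (summed levels of 75.4 to 81.4 and 63.9 to 70.5). Neutrophil markers were positive in 6 of 8, 2 of them at an unadjusted p under 0.05, and their sums overlapped (45.1 to 52.7 and 42.2 to 47.1). Most genes of the last 2 lists were under the dim limit. Hepatocyte markers went both ways, with a median difference of -0.03. Hnf4a (-0.36, adjusted p = 0.399) and Tat (-0.38, adjusted p = 0.443) lay lower without overlap, differences of about the size seen in many proteasome genes, and Fgb lay higher (0.43, adjusted p = 0.367). The summed hepatocyte level, which the brightest genes dominate, was 41168 to 42558 in the knockouts and 40583 to 42321 in the controls. Their part in the results on the proteasome genes was not tested. In whole liver, fewer cells of a type and less RNA per cell cannot be told apart.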

How the data were processed

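The 6 liver RNA samples were hybridised to 1 array each. Per the submitters' processing notes, the authors used Affymetrix Expression Console 1.4.1 and RMA, and the deposited table holds log2 expression of 41345 probe sets. RMA gives the arrays a common distribution before probes are summarised to probe sets, so a shift shared by most transcripts is largely hidden. The distributions of the summarised values can still differ slightly between arrays. Array medians lay between 3.11 and 3.16, and 0 pairs of arrays were identical. A genome build was not given in the sources used here.

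Of the probe sets, 23521 had 1 gene symbol in the platform annotation. The probe set with the highest mean stood for each gene, which left 22180 genes and, for the members, 46 of 49 probe sets. Groups were compared in R 4.3.3 by limma 3.58.1 (lmFit, then eBayes), without a filter, with two-sided p-values and Benjamini-Hochberg adjustment at 0.05. Genes above 3.14, the median of all values, on at least 3 arrays counted as above the dim limit. The fit was also run on simulated data with independent genes. Its pass rule concerned only the largest shift added, which exceeded every member's difference. That run does not speak to correlated genes such as these members.

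The members and gene lists were chosen with earlier results of these data known. Of 78 list entries, 68 were matched. Every member is named, with values per array for those at an unadjusted p under 0.05 and for the smallest p of each role. In each pathway list, genes at an unadjusted p under 0.05 are named, and others were named after their values were seen. All 3 promoter motifs were chosen, and the promoters to print were picked, after the members' differences were known. The interferon motif was first searched in a form longer by 1 base and then shortened to meet a formatting limit; with the longer form the share of members with a match stood further above the share of all genes, and the values given are those of the shorter form. The labels do not tie each replicate to its own animal, so p-values speak to the spread among the 6 arrays, possibly technical in part, and the number of arrays limits precision. Same-numbered arrays of the groups did not deviate together, with correlations of 0.01, 0.05 and 0.02 over all genes. Alternatives were array centring, quantile normalization, a dim filter, a trended or robust prior, array weights, the mean of all probe sets, a replicate block and leaving out each array.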

Additional observations from a re-analysis of the deposited data

How the results depend on the processing

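The count of members with an adjusted p under 0.05 was 0 in limma under all 14 alternatives, while 19 members (18 lower, 1 higher) had an unadjusted p under 0.05 in the fit reported. Over all genes, 8 passed with the dim filter, 25 with the trended prior and 1 with the replicate block. Without knockout replicate 3 it was 66 genes, without control replicate 3 it was 3, and 0 passed under the other alternatives. The median difference over members kept its sign in each alternative that could move it (-0.32 to -0.22). The count of lower members at an unadjusted p under 0.05 was 13 after further quantile normalization, where 4.67% of all genes were lower. It was 14 with the replicate block (5.41% of all genes). Under the other settings that kept all arrays it was 18 to 20 (5.34% to 8.72% of the genes tested in that setting). When an array was left out it was 7 to 17 (3.42% to 6.21%). The count of higher members, 1, became 0 after centring the arrays, with array weights and with the replicate block, and was 0 to 1 when an array was left out. The count of members without overlap was 21 to 26 with all arrays and 26 to 29 with 1 left out, which has fewer values to overlap. Over all genes the share without overlap was 16.1% to 20.2% with all arrays and 24.5% to 30.1% with 1 left out. None of the 19 members at an unadjusted p under 0.05 changed sign under the alternatives, but most alternatives could not have changed one. The groups of all 19 did not overlap, so leaving out or weighting arrays could not reverse a sign. The priors, the replicate block and the dim filter left the differences as they were. Only centring, quantile normalization and, for Psmc2, the mean of its probe sets could have done so.

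After further quantile normalization Psmd8 moved to 0.026 and Psme3ip1 to 0.0041. With 1 array left out, the range was -0.074 to 0.024 for Psmd8, -0.11 to 0.36 for Psma8, -0.15 to 0.19 for Psmb11, -0.020 to 0.29 for Psme2, -0.19 to 0.012 for Psmg1, -0.089 to 0.23 for Psmg2, -0.036 to 0.42 for Psmg4, -0.016 to 0.098 for Psmc3ip and -0.20 to 0.013 for Psme3ip1, and each of these changed sign in at least 1 of them. The same-numbered arrays did not deviate together, and the replicate block gave 14 lower and 0 higher members. The cause of these changes was not tested. With 3 arrays per group the median standard error of a member's difference was 0.14, which limits what the fit can call at differences of the size seen here.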
